A study of Mus musculus with 6 samples.

Results

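Enterocytes, the absorptive cells that line the intestine, were compared after 25 h of tunicamycin and after DMSO, the solvent. The members were all cells that the authors' deposited cell names class as enterocytes and whose mitochondrial UMIs (unique molecular identifiers, each standing for a captured RNA molecule) made up at most 25% of the cell. There were 2956 of them among the 5122 deposited cells of the series, 873 from the tunicamycin libraries and 2083 from the DMSO libraries. The cells came from differentiated monolayers grown from mouse intestinal spheroids and were sequenced with the 10x Genomics 3' V2 chemistry after dead cells had been removed with a kit. The 25 h group received 0.5 µg/ml of tunicamycin from differentiation day 3, the 13 h group received DMSO and then the same dose for the last 13 h, and the DMSO group received no tunicamycin. All were harvested on day 4. Each group had 2 libraries, which the series text calls biological replicates without tying them to separate animals, so the p-values measure the spread between these libraries. Every group carried the same background, a Rosa26-floxed STOP-Cas9 line crossed with cmv-cre on B6. Their origin is uncertain, since the labels give the tissue as small intestine but describe the starting spheroids as colonic.

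Tunicamycin blocks the enzyme encoded by Dpagt1, which starts the sugar chain that is later attached to asparagines of secreted and membrane proteins in the endoplasmic reticulum (ER). Proteins that lack this chain misfold, and 3 sensors in the ER membrane respond. IRE1 splices the mRNA of Xbp1, ATF6 is cut to release a transcription factor, and PERK phosphorylates eIF2alpha, which slows translation while favouring translation of Atf4. XBP1 and ATF6 are known to raise ER chaperones and the degradation machinery, and ATF4 to raise genes of amino acid supply and Ddit3, which encodes CHOP. Enterocytes carry a brush border of microvilli with digestive enzymes and transporters, and package dietary fat into lipoproteins in the ER.

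The libraries held 426 and 447 kept enterocytes at 25 h, against 1046 and 1037 in DMSO. Their summed UMIs were 7760117 and 8723550 at 25 h, against 17429023 and 16755382 in DMSO, and the median enterocyte held a total of 16256 and 17862 at 25 h, against 15652 and 14757 in DMSO. Mitochondrial transcripts made up 8.30% and 7.95% of these UMIs at 25 h, against 9.53% and 9.41% in DMSO. In all, 12 barcodes occurred in more than 1 library, 6 of them among the kept enterocytes, and Scrublet called 31 of the 5122 cells doublets (0.605%), 23 of them kept enterocytes of the 6 libraries. Levels are in CPM, a gene's UMIs per 1000000 UMIs of a library's summed enterocytes after TMM scaling, and "rose" and "fell" mean that edgeR's quasi-likelihood test gave an adjusted p under 0.05. A lower sum can stem from fewer cells with the transcript or from less RNA per cell, which sums cannot tell apart.

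The class was checked against the markers Fabp2, Apoa4 and Alpi. In the fit over both classes Apoa4, which encodes an apolipoprotein of chylomicrons, had 150 and 174 CPM in DMSO enterocytes, against 27.2 and 50.6 CPM in DMSO goblet cells. Alpi, which encodes intestinal alkaline phosphatase, had 266 and 249 CPM in DMSO enterocytes, against 52.7 and 49.8 CPM in DMSO goblet cells. Fabp2, which encodes the intestinal fatty acid-binding protein, separated the classes little, with 608 and 538 CPM in DMSO enterocytes, against 488 and 427 CPM in DMSO goblet cells. Of the other listed enterocyte markers, Fabp1 was too low to be tested. Fcgbp, a mucus gene usually taken as a goblet marker, had 2155 and 1989 CPM in DMSO in enterocytes. The sources used here do not say which genes the authors used to class the cells.

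At 25 h, 5601 of 11145 tested genes (50.3%) differed from DMSO. Of these 2905 (26.1%) were higher and 2696 (24.2%) lower, and 603 (5.41%) were at least 2-fold higher and 474 (4.25%) at least 2-fold lower. With replicates this close (biological coefficient of variation 0.0418) differences well under 2-fold passed, so counts of members are read against these shares. Of all tested genes 75.1% had both 25 h libraries outside the range of both DMSO libraries. The 10 highest fold changes among genes averaging at least 20 CPM belonged to Pdia6, Hspa5, Atf5, Hsd17b13, Creld2, Ppm1j, Ddit3, Manf, Sdf2l1 and Nupr1, and the 10 lowest to Mt2, Saa1, Mt1, Spink1, AY036118, Slc34a2, S100g, Nts, Apol7a and Apoc3.

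**Figure D1:**
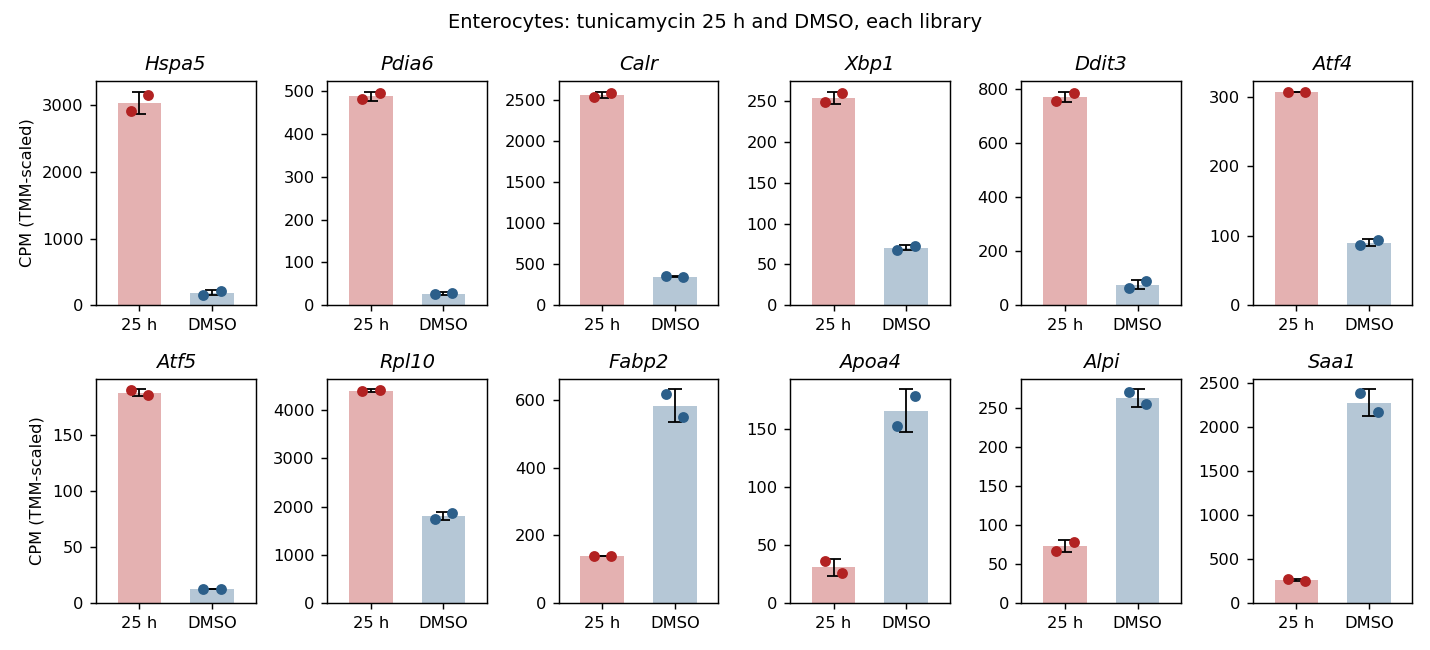
Levels of 12 genes in enterocytes in CPM, with a point for each library, a bar for the mean of the 2 libraries and an error bar of 1 SD. Stress genes from Hspa5 to Atf5 and the ribosomal protein gene Rpl10 lie above DMSO at 25 h, and Fabp2, Apoa4, Alpi and Saa1 lie below it. The groups do not overlap, as in 75.1% of all tested genes.

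ER chaperones rose almost as a whole. Of 25 measured chaperones and folding enzymes 23 rose and 0 fell, with a median log2 fold change of 1.82, against 0.03 for all tested genes. Hspa5 (ENSMUSG00000026864, chr2:34771970-34777547, plus strand, GRCm38) encodes BiP, the Hsp70 chaperone of the ER lumen. It had 2916 and 3155 CPM at 25 h, against 159 and 214 CPM in DMSO (log2 fold change 4.02 ± 0.10 SE, edgeR adjusted p = 1.8e-12), a 16.3-fold difference. Pdia6, which encodes a disulfide isomerase that partners BiP, had 480.4 and 495 CPM at 25 h, against 25.0 and 28.9 CPM in DMSO (log2 fold change 4.18 ± 0.07 SE, edgeR adjusted p = 2.33e-14). Both genes were low in each DMSO library and high in each 25 h library, as the plot of levels by library shows. Both 25 h libraries lay above both DMSO libraries in 39.3% of all tested genes. Calr, which encodes calreticulin, the lumenal lectin that holds glycoproteins during folding, had 2537 and 2592 CPM at 25 h, against 356 and 344 CPM in DMSO (log2 fold change 2.87 ± 0.05 SE, edgeR adjusted p = 2.33e-14). Hsp90b1, which encodes GRP94, the Hsp90 of the ER, had 1414 and 1519 CPM at 25 h, against 171 and 178 CPM in DMSO (log2 fold change 3.07 ± 0.05 SE, edgeR adjusted p = 2.46e-14). The lumenal stress protein gene Manf had 1104 and 1168 CPM at 25 h, against 107 and 126 CPM in DMSO (log2 fold change 3.28 ± 0.07 SE, edgeR adjusted p = 1.62e-13). Sdf2l1, whose product works with BiP, had 569 and 542 CPM at 25 h, against 55.6 and 61.2 CPM in DMSO, and Creld2, which encodes an ER protein induced by stress, had 175 and 183 CPM at 25 h, against 13.1 and 19.5 CPM in DMSO. The log2 fold changes of these last genes were 3.25 and 3.46. Among the rest, Hyou1, Pdia4, Pdia5, Pdia3 and Sil1 rose by log2 fold changes of 3.21, 3.04, 2.77, 2.45 and 2.05. The smallest rises were those of Erp44 (0.48) and Ero1l (0.24), while Fkbp11 (0.99, edgeR adjusted p = 0.139) and Ero1lb (0.35, edgeR adjusted p = 0.37) did not pass.

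The ER stress response element is the promoter sequence that ATF6 and XBP1 are known to recognise. Its letters, CCAAT and CCACG with any 9 bases between them, were searched on both strands in the 250 bases before each annotated start in RefSeq (GRCm38.p6), which held promoters for 8724 of the 11145 tested genes. A gene with several annotated starts was counted when any of its windows held the letters. They occurred in 13 of the 8724 genes (0.149%), in 10 of the 465 genes that were at least 2-fold higher (2.15%), in 0 of the 339 that were at least 2-fold lower, and in 7 of 20 ER chaperone genes (35%). The promoter of Hspa5 is shown whole because this gene had the second highest fold change, and the windows of the other 9 genes that held the letters and were at least 2-fold higher are shown with 12 bases on either side. Capitals mark the element, or its reverse complement, and each sequence is on the strand of its gene, 5′ to 3′.
Hspa5 promoter, chr2:34771840-34772089, plus strand: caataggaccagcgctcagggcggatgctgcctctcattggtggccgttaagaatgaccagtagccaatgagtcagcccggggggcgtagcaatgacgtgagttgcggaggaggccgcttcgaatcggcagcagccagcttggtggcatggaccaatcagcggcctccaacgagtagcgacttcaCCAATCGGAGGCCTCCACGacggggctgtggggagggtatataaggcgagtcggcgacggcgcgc
Alg12, chr15:88819508-88819550, minus strand: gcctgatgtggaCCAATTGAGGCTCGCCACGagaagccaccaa
Calr, chr8:84847063-84847105, minus strand: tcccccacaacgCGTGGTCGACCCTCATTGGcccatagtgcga
Canx, chr11:50325788-50325830, minus strand: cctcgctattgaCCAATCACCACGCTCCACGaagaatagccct
Creld2, chr15:88819508-88819550, plus strand: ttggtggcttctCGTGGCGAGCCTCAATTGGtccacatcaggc
Derl3, chr10:75893230-75893272, plus strand: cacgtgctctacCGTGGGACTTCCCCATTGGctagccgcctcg
Dnajc3, chr14:118937815-118937857, plus strand: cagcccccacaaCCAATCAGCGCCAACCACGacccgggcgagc
Hsp90b1, chr10:86705521-86705563, minus strand: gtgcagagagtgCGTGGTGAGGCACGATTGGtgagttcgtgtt
Pdia6, chr12:17266479-17266521, plus strand: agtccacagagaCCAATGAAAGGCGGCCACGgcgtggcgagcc
Syvn1, chr19:6046520-6046562, plus strand: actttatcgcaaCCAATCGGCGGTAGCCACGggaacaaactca
The Hspa5 element began 65 bases before the RefSeq start. The Hsp90b1 promoter held 2 elements, of which the nearer to the start is shown. Creld2 and Alg12 are read in opposite directions from the same stretch, so that their windows are a single element seen from either strand, and both genes rose (3.46 and 1.28). Among the 3 other holders Hnrnpa3 (0.92) and Pan2 (0.44) rose less than 2-fold, and Adcy3 (0.27, edgeR adjusted p = 0.713) did not pass. These windows were chosen after their values were seen. A further pattern, TGACGTGG, the core that XBP1 is known to bind, was in 75 of the 8724 genes (0.860%). It was in 7 of the 465 genes at least 2-fold higher (1.51%), in 3 of the 339 at least 2-fold lower (0.885%) and in 2 of 20 ER chaperone genes. None of the patterns searched, these and those named below, occurred in the 250 bases before the starts of Sdf2l1, Trib3, Ddit3, Apoa4 and Fabp2, which says only that these letters are not in that window.

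The machinery that removes misfolded proteins from the ER rose with the chaperones. ER-associated degradation had 17 risers and 0 falls among 20 measured genes (median log2 fold change 0.46). Derl3, which encodes a derlin of the retrotranslocation complex, had 22.2 and 23.6 CPM at 25 h, against 0.470 and 0.550 CPM in DMSO (log2 fold change 5.47 ± 0.18 SE, edgeR adjusted p = 1.8e-11), and the DMSO values stand for 8 and 9 UMIs. Selenos, a selenoprotein gene of the same complex, had 217 and 232 CPM at 25 h, against 50.8 and 54.0 CPM in DMSO (log2 fold change 2.10 ± 0.06 SE, edgeR adjusted p = 3.17e-12). Sel1l, which encodes the adaptor of the ubiquitin ligase HRD1, had 171 and 173 CPM at 25 h, against 60.1 and 60.4 CPM in DMSO (log2 fold change 1.51 ± 0.05 SE, edgeR adjusted p = 1.17e-11), and the ligase gene Syvn1 rose by a log2 fold change of 1.52. Herpud1 also rose (1.72); its promoter held a second known form of the element, ATTGG and CCACG with 1 base between them, 52 bases before the start, a pattern found in 6 of the 8724 genes. Of the other holders Lrif1 (0.22) and Rbm39 (0.21) rose slightly, Lgalsl fell (-0.62), and Nucb1 (0.06) and Rcl1 (0.25) did not pass. Faf2, Edem3 and Nploc4 did not pass (log2 fold changes of 0.06, -0.02 and -0.19).

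Protein entry into the ER and onward transport rose in 25 of 27 measured genes, and only Sar1b fell (-0.20), a call that was lost without 25 h replicate 2. Sec61a1, which encodes the pore of the translocon, had 148 and 159 CPM at 25 h, against 69.9 and 67.9 CPM in DMSO (log2 fold change 1.16 ± 0.05 SE, edgeR adjusted p = 5.4e-10). Spcs2, a signal peptidase subunit gene, had 294 and 292 CPM at 25 h, against 112 and 123 CPM in DMSO (log2 fold change 1.32 ± 0.05 SE, edgeR adjusted p = 8.55e-11). The subunit gene Ssr4 of the translocon-associated complex had 486 and 487 CPM at 25 h, against 232 and 241 CPM in DMSO (log2 fold change 1.04 ± 0.05 SE, edgeR adjusted p = 2.74e-10). The shifts in this group were smaller than among the chaperones, with a median log2 fold change of 0.76. Sar1b encodes the GTPase of the transport vesicles that carry chylomicrons, and it is counted again among the lipid genes.

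The target pathway of tunicamycin itself moved. Of 24 measured genes of N-glycosylation 19 rose and 1 fell (median log2 fold change 0.65). Dpagt1 had 24.4 and 26.8 CPM at 25 h, against 17.1 and 14.4 CPM in DMSO (log2 fold change 0.70 ± 0.10 SE, edgeR adjusted p = 4.6e-05), a 1.62-fold difference. Subunit genes of the enzyme that transfers the sugar chain rose more, with Magt1 at 172 and 181 CPM at 25 h, against 57.3 and 58.2 CPM in DMSO (log2 fold change 1.61 ± 0.05 SE, edgeR adjusted p = 1.07e-11). Ostc had 229 and 225 CPM at 25 h, against 73.6 and 81.1 CPM in DMSO (log2 fold change 1.55 ± 0.06 SE, edgeR adjusted p = 4.88e-11). Rpn1 had 194 and 201 CPM at 25 h, against 77.8 and 77.0 CPM in DMSO (log2 fold change 1.35 ± 0.05 SE, edgeR adjusted p = 4.08e-11). The gene of another subunit, Ost4, was the single member that fell (-0.64), so the subunits did not shift as a block.

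Sensor genes had a smaller median fold change than the chaperones. Of 12 measured sensor and transducer genes 7 rose and 1 fell (median log2 fold change 0.38). Xbp1, whose counts here pool spliced and unspliced mRNA, had 249 and 259.6 CPM at 25 h, against 68.1 and 72.5 CPM in DMSO (log2 fold change 1.86 ± 0.05 SE, edgeR adjusted p = 3.65e-12). Of the sensor genes, Ern1 (IRE1), Atf6b and Atf6 rose by log2 fold changes of 0.60, 0.46 and 0.39, while Eif2ak3 (PERK) did not pass (0.13, edgeR adjusted p = 0.524). Creb3l2, which encodes an ER-anchored transcription factor, rose with 11.8 and 13.3 CPM at 25 h, against 4.81 and 3.97 CPM in DMSO (log2 fold change 1.51 ± 0.16 SE, edgeR adjusted p = 2.03e-06). Its relative Creb3l3, known in liver and intestine as a regulator of lipid genes, moved the other way with 1.13 and 2.08 CPM at 25 h, against 6.28 and 5.25 CPM in DMSO (log2 fold change -1.82 ± 0.29 SE, edgeR adjusted p = 0.000118). Qrich1, which encodes a transcriptional regulator of the ER stress response, had 43.7 and 39.0 CPM at 25 h, against 32.5 and 31.0 CPM in DMSO (log2 fold change 0.38 ± 0.08 SE, edgeR adjusted p = 0.00106), a small rise that did not pass when cells were thinned to 5000 UMIs (0.36, edgeR adjusted p = 0.0559).

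The branch below PERK was strongly up at the level of mRNA. Of 17 measured genes of the ATF4 branch 15 rose and 0 fell (median log2 fold change 1.95). Ddit3 (ENSMUSG00000025408, chr10:127290774-127296288, plus strand), which encodes the stress factor CHOP, had 758 and 786 CPM at 25 h, against 64.6 and 88.2 CPM in DMSO (log2 fold change 3.34 ± 0.10 SE, edgeR adjusted p = 6.78e-12). Atf4 had 307 and 307 CPM at 25 h, against 86.8 and 93.5 CPM in DMSO (log2 fold change 1.77 ± 0.05 SE, edgeR adjusted p = 5.98e-12). Atf5, which encodes a factor related to ATF4, had 189.6 and 186 CPM at 25 h, against 12.4 and 12.4 CPM in DMSO (log2 fold change 3.91 ± 0.07 SE, edgeR adjusted p = 2.46e-14). The 25 h and DMSO libraries did not overlap for any of these genes, as for 75.1% of all tested genes. Nupr1, a small stress-induced nuclear protein gene, had 673 and 662 CPM at 25 h, against 60.1 and 87.2 CPM in DMSO (log2 fold change 3.18 ± 0.11 SE, edgeR adjusted p = 3.27e-11). Trib3, which encodes a pseudokinase that inhibits signalling through AKT and ATF4, rose by 3.07, and Cebpb, Vldlr, Atf3, Chac1 and Gdf15 rose by log2 fold changes of 2.23, 2.09, 1.99, 1.95 and 1.95. Ppp1r15a, which encodes GADD34, the stress-induced phosphatase subunit that reverses eIF2alpha phosphorylation, rose by 0.76. Its constitutive counterpart Ppp1r15b did not pass (-0.06).

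Genes that supply amino acids rose in 19 of 20 cases and fell in 0, with a median log2 fold change of 2.19. Asns, which encodes asparagine synthetase, had 118 and 116 CPM at 25 h, against 24.8 and 26.6 CPM in DMSO (log2 fold change 2.19 ± 0.06 SE, edgeR adjusted p = 5.07e-12). Mthfd2, a mitochondrial folate enzyme gene, had 107 and 106 CPM at 25 h, against 20.8 and 21.1 CPM in DMSO (log2 fold change 2.34 ± 0.06 SE, edgeR adjusted p = 1.8e-12). Slc3a2, which encodes the heavy chain shared by several amino acid exchangers, had 573 and 605 CPM at 25 h, against 122 and 139 CPM in DMSO (log2 fold change 2.17 ± 0.06 SE, edgeR adjusted p = 3.48e-12), and its light chains Slc7a5 and Slc7a11 rose by 2.51 and 2.19. Proline synthesis moved in the same direction, with Pycr1 at 4.06 and Aldh18a1 at 2.20, and so did serine synthesis, with Phgdh at 2.37 and Psat1 at 2.35. The glutamine transporter gene Slc38a2 did not pass (0.08, edgeR adjusted p = 0.176). Of 20 cytosolic tRNA synthetase genes 19 rose and 0 fell (median log2 fold change 1.01). Wars, for tryptophan, had 72.6 and 85.7 CPM at 25 h, against 18.2 and 17.7 CPM in DMSO (log2 fold change 2.14 ± 0.08 SE, edgeR adjusted p = 4.92e-11). Aars, for alanine, had 119 and 124 CPM at 25 h, against 31.1 and 34.9 CPM in DMSO (log2 fold change 1.88 ± 0.06 SE, edgeR adjusted p = 1.62e-11). Eprs, for glutamate and proline, had 87.1 and 86.6 CPM at 25 h, against 26.8 and 29.1 CPM in DMSO (log2 fold change 1.64 ± 0.06 SE, edgeR adjusted p = 5.1e-11). Hars, for histidine, did not pass (0.22).

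ATF4 pairs with C/EBP proteins on a composite element whose letters TGATGNAA were searched in the same windows. It occurred in 212 of 8724 genes (2.43%), in 29 of the 465 that were at least 2-fold higher (6.24%) and in 13 of the 339 that were at least 2-fold lower (3.83%). Among the lists it was in 4 of 16 genes of the ATF4 branch (25%), 3 of 16 of amino acid supply and 3 of 12 tRNA synthetase genes (25%). The windows of 9 of these genes are shown with the element in capitals, as TGATGNAA or as its reverse complement, on the strand of the gene; the element of Slc7a11 nearer to the start is shown of 2 in its window.
Asns, chr6:7693213-7693244, minus strand: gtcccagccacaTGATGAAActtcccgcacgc
Atf3, chr1:191183424-191183455, minus strand: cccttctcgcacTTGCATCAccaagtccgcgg
Chac1, chr2:119351037-119351068, plus strand: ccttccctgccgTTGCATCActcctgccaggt
Gars, chr6:55037959-55037990, plus strand: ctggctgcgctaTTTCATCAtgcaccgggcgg
Nupr1, chr7:126625561-126625592, minus strand: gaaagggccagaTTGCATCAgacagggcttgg
Pycr1, chr11:120643832-120643863, minus strand: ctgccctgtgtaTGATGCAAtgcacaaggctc
Slc7a11, chr3:50443641-50443672, minus strand: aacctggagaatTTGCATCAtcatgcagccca
Tars, chr15:11399659-11399685, minus strand: ccaggagtcccgTTGCATCAgctggtt
Vldlr, chr19:27216808-27216839, plus strand: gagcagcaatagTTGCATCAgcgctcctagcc
All 9 of these genes rose, but each was picked from lists in which nearly all members rose, so that nothing about the element follows from it. The smallest fold changes among them were those of Gars (0.68) and Tars (0.84).

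The translation machinery rose as a group. Of 80 measured genes of cytosolic ribosomal proteins 73 rose and 0 fell, with a median log2 fold change of 0.84 and a highest of 1.34; without 25 h replicate 2, 3 of them fell. Rpl10, which encodes a protein of the large subunit, had 4392 and 4427 CPM at 25 h, against 1747 and 1864 CPM in DMSO (log2 fold change 1.29 ± 0.04 SE, edgeR adjusted p = 2.21e-11). Rps6, for a protein of the small subunit, had 1676 and 1670.1 CPM at 25 h, against 645 and 674 CPM in DMSO (log2 fold change 1.34 ± 0.05 SE, edgeR adjusted p = 3.88e-11). Rpl14 had 1284 and 1310.1 CPM at 25 h, against 533 and 558 CPM in DMSO (log2 fold change 1.25 ± 0.05 SE, edgeR adjusted p = 4.01e-11). Ribosomal protein genes have many processed pseudogenes with near-identical sequence, and the handling of such reads is not stated in the labels. Together they took 14.1% and 15.3% of the UMIs of enterocytes at 25 h, against 8.26% in both DMSO libraries. Of 20 translation factor genes 18 rose, including Eef1a1, the main elongation factor gene, with 4642 and 4693 CPM at 25 h, against 2189 and 2307 CPM in DMSO (log2 fold change 1.05 ± 0.04 SE, edgeR adjusted p = 1.01e-10). Eif4ebp1, which encodes a brake on cap-dependent initiation, also rose, with 429 and 436 CPM at 25 h, against 105 and 112 CPM in DMSO (log2 fold change 2.0 ± 0.05 SE, edgeR adjusted p = 1.16e-12). Eif4g1, the scaffold of the initiation complex, was the single gene of this list that fell (-0.20), a call lost without DMSO replicate 1. Mitochondrial ribosomal protein genes shifted less, with 49 of 78 higher and 4 lower (median 0.28), as in Mrpl54 with 144 and 143 CPM at 25 h, against 84.7 and 82.8 CPM in DMSO (log2 fold change 0.78 ± 0.05 SE, edgeR adjusted p = 8.44e-09).

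**Figure D2:**
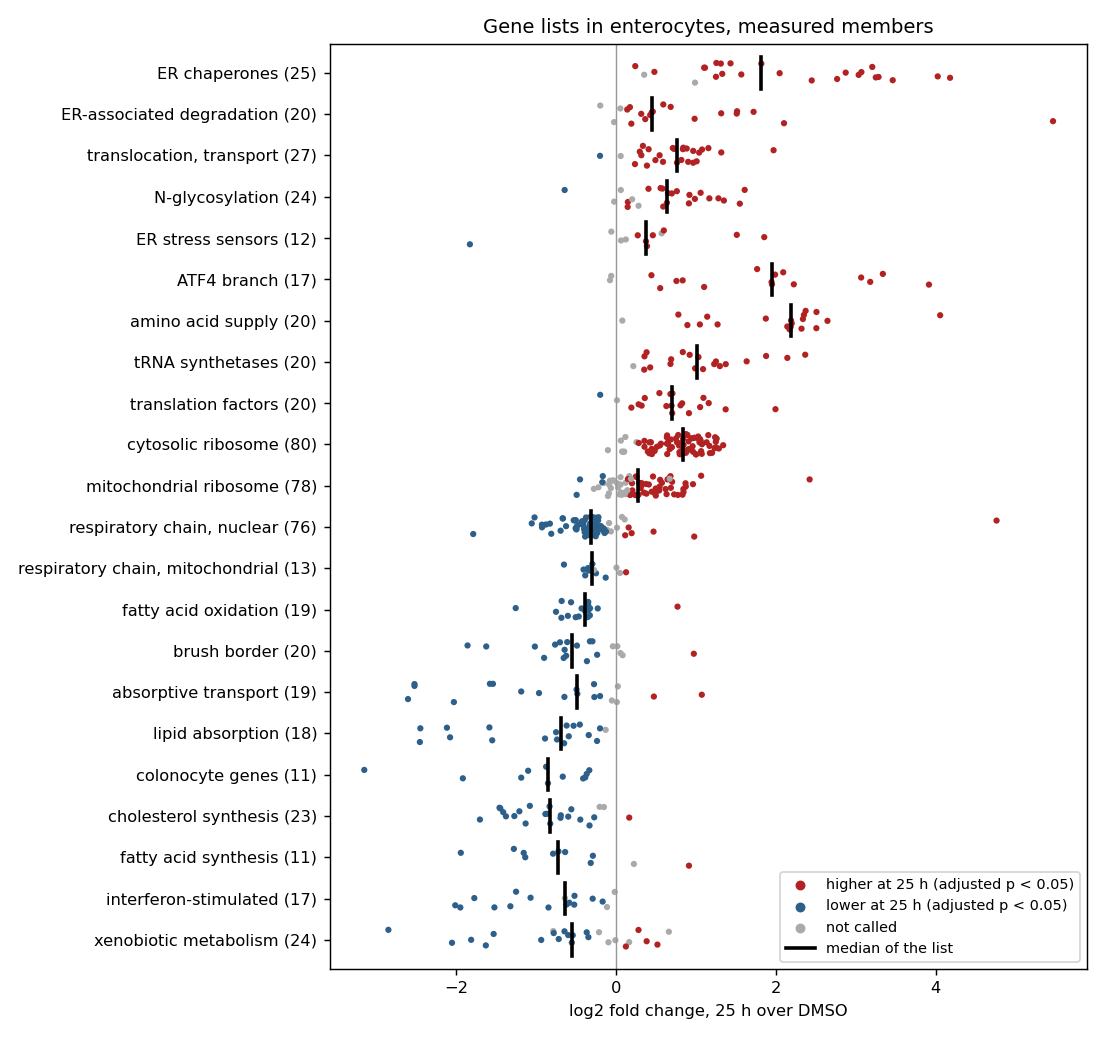
Log2 fold changes of 25 h over DMSO in enterocytes (horizontal axis) for the measured members of 22 gene lists (rows, with their numbers), each point a gene coloured by its call and each black bar the median of the list. Lists from ER chaperones to the mitochondrial ribosome have medians above 0, and those from the respiratory chain down have medians below 0.

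The respiratory chain went the other way. Of 76 measured nuclear genes of its complexes 64 fell and 6 rose, with a median log2 fold change of -0.31, and of 13 mitochondrially encoded genes 9 fell and 1 rose (median -0.29). Without DMSO replicate 1 only 3 of the nuclear genes rose, and without 25 h replicate 1 or either DMSO library 0 of the mitochondrially encoded genes rose. mt-Co1, the mitochondrial gene of a cytochrome oxidase subunit, had 26318 and 25691 CPM at 25 h, against 34725 and 34053 CPM in DMSO (log2 fold change -0.40 ± 0.04 SE, edgeR adjusted p = 5.39e-07). Atp5g3, a nuclear gene of ATP synthase, had 309.7 and 314 CPM at 25 h, against 496 and 491 CPM in DMSO (log2 fold change -0.66 ± 0.04 SE, edgeR adjusted p = 2.58e-08). These shifts were small beside those of the stress genes, as the plot of lists shows. Subunit genes of cytochrome oxidase that are typical of muscle moved most and in opposite directions. Cox7a1 had 31.9 and 35.9 CPM at 25 h, against 118 and 115 CPM in DMSO (log2 fold change -1.78 ± 0.06 SE, edgeR adjusted p = 2.91e-11), whereas Cox6a2 had 8.81 and 7.96 CPM at 25 h, against 0.352 and 0.244 CPM in DMSO (log2 fold change 4.76 ± 0.34 SE, edgeR adjusted p = 4.47e-08), and the DMSO values of Cox6a2 stand for 6 and 4 UMIs. Fatty acid oxidation fell in 18 of 19 measured genes (median -0.38), and only Acadl rose (0.77).

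The absorptive programme of the enterocyte was lower at 25 h. Of 18 measured genes of lipid absorption 17 fell and 0 rose, with a median log2 fold change of -0.69. Fabp2 had 139 and 138 CPM at 25 h, against 617 and 549.6 CPM in DMSO (log2 fold change -2.07 ± 0.06 SE, edgeR adjusted p = 5.98e-12). Apoa4 had 35.8 and 25.4 CPM at 25 h, against 153 and 178 CPM in DMSO (log2 fold change -2.44 ± 0.11 SE, edgeR adjusted p = 3.78e-10). Apoc3, another apolipoprotein gene, had 67.1 and 73.6 CPM at 25 h, against 377 and 392 CPM in DMSO (log2 fold change -2.45 ± 0.07 SE, edgeR adjusted p = 3.48e-12). The fatty acid transporter gene Cd36 fell by 2.11 on the log2 scale and the cholesterol transporter gene Npc1l1 by 1.58. Apoa1 had 101 and 313 CPM at 25 h, against 581 and 633 CPM in DMSO (log2 fold change -1.55 ± 0.29 SE, edgeR adjusted p = 0.000512). Its 25 h libraries lay far apart, both below the DMSO libraries. Plin2, which coats lipid droplets, did not pass (-0.13, edgeR adjusted p = 0.194).

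Brush border genes fell in 15 of 20 measured cases, with a median of -0.55. Alpi (ENSMUSG00000079440, chr1:87098002-87101606) had 67.1 and 78.0 CPM at 25 h, against 271 and 255 CPM in DMSO (log2 fold change -1.85 ± 0.07 SE, edgeR adjusted p = 7.97e-11). Treh, for the sugar-cleaving enzyme trehalase, fell by 1.62, and Anpep, for aminopeptidase N, by 1.01. Mep1a, for a subunit of the protease meprin, had 110.4 and 111 CPM at 25 h, against 207 and 206 CPM in DMSO (log2 fold change -0.90 ± 0.05 SE, edgeR adjusted p = 1.61e-09), while the gene of its other subunit, Mep1b, did not pass (-0.04). Vil1, which encodes villin, an actin bundler of microvilli, had 368 and 368 CPM at 25 h, against 627 and 619 CPM in DMSO (log2 fold change -0.76 ± 0.05 SE, edgeR adjusted p = 8.44e-09). The list did not move as a block: the disaccharidase genes Sis and Mgam had log2 fold changes of 0.02 and 0.06 and did not pass, and the peptidase gene Enpep rose (0.98).

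Transporters of the absorptive surface fell in 14 of 19 measured cases (median -0.49) and rose in 2, or in 1 without 25 h replicate 1 or without DMSO replicate 1. Slc34a2, a sodium-phosphate transporter gene, had 12.8 and 18.2 CPM at 25 h, against 90.2 and 88.8 CPM in DMSO (log2 fold change -2.52 ± 0.10 SE, edgeR adjusted p = 8.27e-11). S100g, which encodes the calcium-binding protein calbindin-D9k, had 267 and 259 CPM at 25 h, against 1459 and 1551 CPM in DMSO (log2 fold change -2.52 ± 0.07 SE, edgeR adjusted p = 3.36e-12). Slc11a2, for the iron importer DMT1, had 564 and 596 CPM at 25 h, against 1759.95 and 1692 CPM in DMSO (log2 fold change -1.57 ± 0.05 SE, edgeR adjusted p = 1.31e-11). These genes of phosphate, calcium and iron uptake were all lower in both 25 h libraries than in both DMSO libraries, as were 35.8% of all tested genes. Slc5a1, for the glucose transporter SGLT1, fell by 2.02 and Slc6a19, for a transporter of neutral amino acids, by 2.60. The fructose transporter gene Slc2a5 rose (1.07), as did Slc51a (0.48), which encodes a subunit of the bile salt exporter. All 11 measured genes of 15 listed as typical of colonocytes fell (median -0.85). Car4, Aqp8, Aqp4 and Slc26a3 of that list were too low to be tested. Its lowest member was Saa1 (-3.14), which is described again with the acute-phase genes. Ceacam1, for a cell adhesion protein, had 167 and 155 CPM at 25 h, against 611 and 599 CPM in DMSO (log2 fold change -1.91 ± 0.07 SE, edgeR adjusted p = 2.55e-11). Lypd8, for a secreted protein that keeps bacteria off the epithelium, had 3388 and 3065 CPM at 25 h, against 6846 and 6949 CPM in DMSO (log2 fold change -1.10 ± 0.05 SE, edgeR adjusted p = 2.68e-10).

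Transcription factors of enterocyte identity had a smaller median fold change than the lists of lipid absorption, brush border and absorptive transport, though single factors fell clearly. The lowest was Creb3l3 (-1.82), described with the sensor genes. Of 21 measured factors 10 fell and 2 rose (4 without 25 h replicate 1 and 1 without DMSO replicate 2; median -0.23), against 24.2% of all genes lower and 26.1% higher. Hes1, which encodes the Notch effector that favours the absorptive fate, had 17.2 and 17.2 CPM at 25 h, against 42.7 and 42.8 CPM in DMSO (log2 fold change -1.31 ± 0.08 SE, edgeR adjusted p = 6.61e-09). Elf3 had 304 and 292 CPM at 25 h, against 483 and 477 CPM in DMSO (log2 fold change -0.69 ± 0.05 SE, edgeR adjusted p = 3.2e-08) and Maf had 51.5 and 48.1 CPM at 25 h, against 81.1 and 75.7 CPM in DMSO (log2 fold change -0.66 ± 0.06 SE, edgeR adjusted p = 7.24e-07). Hnf4a fell slightly (0.25 on the log2 scale), whereas Hnf4g (0.16), Cdx2 (-0.09), Cdx1 (0.04) and Klf5 (0.01) did not pass. Gata6 rose (0.34). The letters CAAAGTCCA, which HNF4A is known to bind, were in 42 of 8724 promoters (0.481%), in 7 of the 339 genes at least 2-fold lower (2.06%) and in 4 of the 465 at least 2-fold higher (0.860%). Among the lists they were in 2 of 16 brush border genes, 1 of 14 of absorptive transport and 0 of 14 of lipid absorption. They were also in 2 of 60 ribosomal protein genes and 1 of 20 ER chaperone genes, lists that mostly rose. The windows of both brush border genes are shown with the site, or its reverse complement, in capitals. Both were picked from a list that mostly fell, so that nothing about the site follows from them.
Alpi, chr1:87101607-87101637, minus strand: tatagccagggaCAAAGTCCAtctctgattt
Treh, chr9:44673150-44673182, plus strand: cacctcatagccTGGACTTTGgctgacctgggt

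Among genes averaging at least 20 CPM, metal-handling and acute-phase genes had the 3 lowest fold changes. Mt2, which encodes a metal-binding metallothionein, had 9.19 and 17.0 CPM at 25 h, against 208 and 263 CPM in DMSO (log2 fold change -4.15 ± 0.16 SE, edgeR adjusted p = 5.59e-11), a 17.8-fold lower level. Mt1 had 208 and 273 CPM at 25 h, against 1791 and 1832 CPM in DMSO (log2 fold change -2.91 ± 0.09 SE, edgeR adjusted p = 9.28e-12). Saa1, an acute-phase gene that the epithelium also uses, had 267 and 248 CPM at 25 h, against 2385 and 2174 CPM in DMSO (log2 fold change -3.14 ± 0.07 SE, edgeR adjusted p = 6.12e-13). These differences far exceeded the gap between the libraries of a group. In the list of acute-phase and antimicrobial genes 7 of 12 fell and 2 rose, or 1 without 25 h replicate 2, 13 h replicate 2 or either DMSO library. Reg3b, for an antibacterial lectin, was called higher with 8.69 and 50.0 CPM at 25 h, against 16.2 and 8.98 CPM in DMSO (log2 fold change 1.25 ± 0.46 SE, edgeR adjusted p = 0.0373), although 1 of the 25 h libraries lay below both DMSO libraries. Of 17 interferon-stimulated genes 14 fell and 0 rose (median -0.64). Ifit1, which binds foreign RNA, had 43.1 and 42.4 CPM at 25 h, against 173 and 170.4 CPM in DMSO (log2 fold change -2.01 ± 0.06 SE, edgeR adjusted p = 1.07e-11). Oasl1 had 24.2 and 27.8 CPM at 25 h, against 63.7 and 66.2 CPM in DMSO, and Oasl2 had 14.1 and 12.8 CPM at 25 h, against 45.9 and 45.6 CPM in DMSO. Antigen presentation genes fell in 7 of 13 cases, with B2m, the light chain of MHC class I, at 839 and 809.6 CPM at 25 h, against 1606 and 1641 CPM in DMSO (log2 fold change -0.98 ± 0.04 SE, edgeR adjusted p = 2.74e-10). The peptide transporter genes Tap1 (0.88) and Tap2 (0.58) rose. The MHC class I genes H2-Q1 and H2-Q2 also fell, but these family members share sequence and reads may be split between them.

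Lipid synthesis fell as well. Of 23 measured genes of cholesterol synthesis and its control 20 fell and 1 rose (median -0.83). Hmgcs1, an early enzyme of the pathway, had 188 and 191 CPM at 25 h, against 440.4 and 472 CPM in DMSO (log2 fold change -1.27 ± 0.05 SE, edgeR adjusted p = 7.99e-11). Idi1 had 39.3 and 41.7 CPM at 25 h, against 106 and 109 CPM in DMSO (log2 fold change -1.41 ± 0.06 SE, edgeR adjusted p = 1.62e-10). Ebp was the single member that rose (0.17), with an edgeR adjusted p = 0.041. Without either 25 h library, either 13 h library or DMSO replicate 1 in turn, 0 members of the list rose. The gene of the pathway's master regulator, Srebf2, did not pass (-0.15). In fatty acid synthesis 9 of 11 fell (median -0.72), with Scd1, for the main desaturase, at 69.0 and 72.1 CPM at 25 h, against 169 and 172 CPM in DMSO (log2 fold change -1.27 ± 0.05 SE, edgeR adjusted p = 7.97e-11).

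Genes that handle foreign compounds fell in 14 of 24 cases and rose in 4 (median -0.54). Adh6a, an alcohol dehydrogenase gene, had 174 and 178 CPM at 25 h, against 517 and 570.4 CPM in DMSO (log2 fold change -1.63 ± 0.06 SE, edgeR adjusted p = 4.25e-11). Sult1b1, for a sulfotransferase, had 198 and 190.3 CPM at 25 h, against 369 and 372 CPM in DMSO (log2 fold change -0.93 ± 0.05 SE, edgeR adjusted p = 1.16e-09). NRF2 targets of oxidative defence fell in 13 of 19 cases. Gclm, for the regulatory subunit of the enzyme that starts glutathione synthesis, had 140.00 and 139.8 CPM at 25 h, against 232 and 236 CPM in DMSO (log2 fold change -0.74 ± 0.05 SE, edgeR adjusted p = 8.74e-09). The 2 members that rose were Slc7a11 (2.19), also counted with the ATF4-linked transporters, and Hmox1 (1.27), for heme oxygenase. Glycolysis genes were mixed, with 6 of 15 higher, or 3 without DMSO replicate 1, and 5 lower. Slc2a1, for the glucose transporter GLUT1, had 135 and 134 CPM at 25 h, against 83.7 and 84.1 CPM in DMSO (log2 fold change 0.68 ± 0.05 SE, edgeR adjusted p = 4.48e-08). Ldha, for lactate dehydrogenase, had 4928 and 4790.4 CPM at 25 h, against 7482 and 7838 CPM in DMSO (log2 fold change -0.66 ± 0.04 SE, edgeR adjusted p = 1.14e-08).

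Genes of cell death changed in both directions. Of 27 measured apoptosis genes 4 rose and 11 fell, against shares of 26.1% higher and 24.2% lower among all genes. The risers were Tnfrsf10b, for a death receptor (1.14), Bcl2 (0.90), Bbc3, for PUMA (0.48), and Bax, which had 182 and 176 CPM at 25 h, against 127 and 125 CPM in DMSO (log2 fold change 0.51 ± 0.05 SE, edgeR adjusted p = 9.82e-07). Mcl1, which protects cells, had 100.2 and 111 CPM at 25 h, against 151 and 161 CPM in DMSO (log2 fold change -0.56 ± 0.06 SE, edgeR adjusted p = 1.39e-06), while Casp8, which starts the death receptor cascade, had 74.9 and 63.8 CPM at 25 h, against 106 and 114 CPM in DMSO (log2 fold change -0.67 ± 0.07 SE, edgeR adjusted p = 1.73e-06). Bcl2l11, for the killer protein BIM, fell by 0.88, and Pmaip1 (-0.02) did not pass. Of 17 p53 targets 8 rose and 2, Sesn1 (-0.50) and Btg2 (-0.24), fell. Among the risers Trp53inp1 had 35.5 and 39.2 CPM at 25 h, against 17.6 and 17.0 CPM in DMSO (log2 fold change 1.11 ± 0.09 SE, edgeR adjusted p = 2.17e-07), but Cdkn1a (0.03) and Mdm2 (-0.15) did not pass.

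Several ligands of the EGF receptor rose. Areg, for amphiregulin, had 178 and 167 CPM at 25 h, against 24.5 and 31.8 CPM in DMSO (log2 fold change 2.62 ± 0.09 SE, edgeR adjusted p = 1.64e-11). Ereg, for epiregulin, had 32.0 and 33.8 CPM at 25 h, against 6.28 and 7.33 CPM in DMSO (log2 fold change 2.27 ± 0.10 SE, edgeR adjusted p = 2.22e-10), and Btc, for betacellulin, rose by 2.88. Their list, which also holds NF-kB genes, had 8 of 17 higher and 3 lower, and Tgfa (-0.18) and Hbegf (0.05), further ligands of the same receptor, did not pass. The chemokine gene Ccl20 had 409 and 432 CPM at 25 h, against 141 and 159 CPM in DMSO (log2 fold change 1.49 ± 0.06 SE, edgeR adjusted p = 1.97e-10). Among immediate early genes Fos fell with 41.0 and 39.2 CPM at 25 h, against 87.2 and 88.8 CPM in DMSO (log2 fold change -1.13 ± 0.08 SE, edgeR adjusted p = 3.45e-08), and of 13 genes 4 rose and 6 fell. Junction genes (5 of 21 higher, 9 lower), cytosolic heat shock genes (5 of 15 higher, 6 lower), autophagy and lysosome genes (8 of 26 higher, 12 lower) and proteasome subunits (10 of 37 higher, 10 lower) had members in both directions. Of all tested genes 26.1% were higher and 24.2% lower. The proteasome shares, 27.0% in either direction, were near these, with a median log2 fold change of -0.03. Without 25 h replicate 2 only 3 proteasome genes fell, and without DMSO replicate 1 only 6 rose and 5 fell. In these lists Ctnnb1, for beta-catenin, had 302 and 293 CPM at 25 h, against 483 and 463 CPM in DMSO, Hspa8, the constitutive Hsp70 of the cytosol, had 1520.5 and 1571 CPM at 25 h, against 1077 and 1070.4 CPM in DMSO, and Sqstm1, for the autophagy adaptor p62, had 145 and 156 CPM at 25 h, against 86.8 and 91.2 CPM in DMSO. Their log2 fold changes were -0.67, 0.53 and 0.76.

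Among the highest and lowest genes outside these lists, Hsd17b13, which encodes a lipid droplet enzyme best known from liver, had 183 and 204 CPM at 25 h, against 12.3 and 15.2 CPM in DMSO (log2 fold change 3.81 ± 0.08 SE, edgeR adjusted p = 3.57e-13). Ppm1j, for a protein phosphatase, had 40.3 and 45.4 CPM at 25 h, against 4.34 and 3.97 CPM in DMSO (log2 fold change 3.36 ± 0.11 SE, edgeR adjusted p = 1.64e-11). Spink1, for a secreted protease inhibitor, had 50.4 and 70.3 CPM at 25 h, against 435 and 405 CPM in DMSO (log2 fold change -2.79 ± 0.10 SE, edgeR adjusted p = 2.34e-11). The long noncoding RNA gene AY036118 had 51.9 and 66.5 CPM at 25 h, against 353 and 359 CPM in DMSO (log2 fold change -2.58 ± 0.08 SE, edgeR adjusted p = 6.78e-12). Nts, for the peptide neurotensin, had 5.54 and 28.0 CPM at 25 h, against 64.3 and 132 CPM in DMSO. Its 25 h libraries lay far apart, and without 25 h replicate 2 the log2 fold change was -4.15 in place of -2.51. Apol7a, which has close paralogs among which reads may be split, had 11.5 and 8.76 CPM at 25 h, against 55.2 and 56.3 CPM in DMSO (log2 fold change -2.47 ± 0.10 SE, edgeR adjusted p = 1.25e-10).

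Markers of other cell types were followed in the same sums. Of 13 goblet markers 10 were measured; 3 rose, 4 fell, and their summed level was 2981 and 2383 CPM at 25 h, against 4038 and 3969 CPM in DMSO. Fcgbp, the gene noted above, had 1325 and 1201 CPM at 25 h, against 2155 and 1989 CPM in DMSO (log2 fold change -0.71 ± 0.05 SE, edgeR adjusted p = 8.09e-08). Zg16, a mucus lectin gene, had 71.5 and 27.0 CPM at 25 h, against 174 and 236 CPM in DMSO (log2 fold change -2.08 ± 0.26 SE, edgeR adjusted p = 1.36e-05). Agr2, whose product helps mucins fold, was higher, with 39.4 and 20.9 CPM at 25 h, against 8.16 and 6.90 CPM in DMSO (log2 fold change 1.98 ± 0.22 SE, edgeR adjusted p = 4.38e-06), and a UMI of it was seen in 8.25% and 5.19% of enterocytes at 25 h, against 2.32% and 2.25% in DMSO, at 5000 UMIs per cell. Muc2, the main mucin gene, did not pass (0.26), and a UMI of it was seen in 3.07% and 3.16% of enterocytes at 25 h, against 2.03% and 1.56% in DMSO, and in 80.2% and 84.1% of goblet cells at 25 h. The part of stray goblet RNA in these values was not tested. Tuft markers reached 2.14 and 1.27 CPM in sum at 25 h, against 1.82 and 2.99 CPM in DMSO, and the defining genes Dclk1, Trpm5 and Pou2f3 were too low to be tested. None of 10 immune markers was high enough to be tested, and stem markers fell in 2 of 6 cases, with a sum of 43.3 and 49.4 CPM at 25 h, against 81.3 and 74.2 CPM in DMSO. Of 5 measured Paneth markers Pnliprp2 was called higher (1.94) and Mmp7 (-1.43) and Itln1 (-1.23) lower, and their sum was 9.32 and 10.5 CPM at 25 h, against 9.98 and 8.92 CPM in DMSO. Without 25 h replicate 2 Pnliprp2 (0.58) and Itln1 (-0.57) did not pass, nor did they without DMSO replicate 1, and without 25 h replicate 1 Itln1 stood at -2.39. With DESeq2 no Paneth marker passed. Sct, the only measured gene of 11 listed enteroendocrine markers, fell, with 24.9 and 27.1 CPM at 25 h, against 46.3 and 43.0 CPM in DMSO (log2 fold change -0.78 ± 0.08 SE, edgeR adjusted p = 1.37e-06). The peptide gene Nts, described above, was not on that list. The part of stray RNA from other cell classes in the Sct and Nts values was not tested. Pecam1, an endothelial gene and the only stromal marker measured, was called higher (0.70), a call lost when any 25 h or DMSO library was left out in turn. Of 7 measured markers of cycling cells 2 fell, Birc5 (-1.29) and Pcna (-0.83), and Tyms rose (1.38), while Mki67 did not pass (-0.81, edgeR adjusted p = 0.202). Their sum was 25.7 and 23.5 CPM at 25 h, against 42.9 and 41.9 CPM in DMSO. Without DMSO replicate 1 Tyms had a log2 fold change of 0.88 and did not pass, nor did it without 25 h replicate 2 or either 13 h library. Birc5 did not pass without 25 h replicate 1 or DMSO replicate 2.

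Whether the response was shared by the cells was followed after each cell had been thinned to 5000 UMIs, which left 424 and 443 enterocytes at 25 h and 1033 and 1024 in DMSO. With 2 libraries a group an exact permutation test cannot pass, so these values carry no test. The median enterocyte held 13 Hspa5 UMIs in both 25 h libraries and 0 in both DMSO libraries, and the 10th percentile at 25 h was 4 and 5. In DMSO 90% of cells held at most 2, a limit that 6.37% and 3.84% of the 25 h cells did not exceed. ER chaperone genes together made up 1.34% and 1.36% of a median cell at 25 h, against 0.28% in both DMSO libraries, and 1.42% and 1.13% of 25 h cells were at or below the DMSO 90th percentile of 0.42%. The chaperone rise thus ran through nearly all enterocytes of both libraries.

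The rise of ribosomal protein transcripts left more overlap with DMSO. They made up 13.6% and 14.7% of the median enterocyte at 25 h, against 7.30% and 7.44% in DMSO, and 51.7% and 44.2% of 25 h cells were at or below the DMSO 90th percentile of 13.9%. A Ddit3 UMI was seen in 91.3% and 92.3% of enterocytes at 25 h, against 21.5% and 24.5% in DMSO. An Areg UMI was seen in 41.7% and 40.9% at 25 h, against 7.36% and 7.91% in DMSO, and an Atf5 UMI in 58.7% and 54.2% at 25 h, against 4.16% and 4.59% in DMSO.

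**Figure D3:**
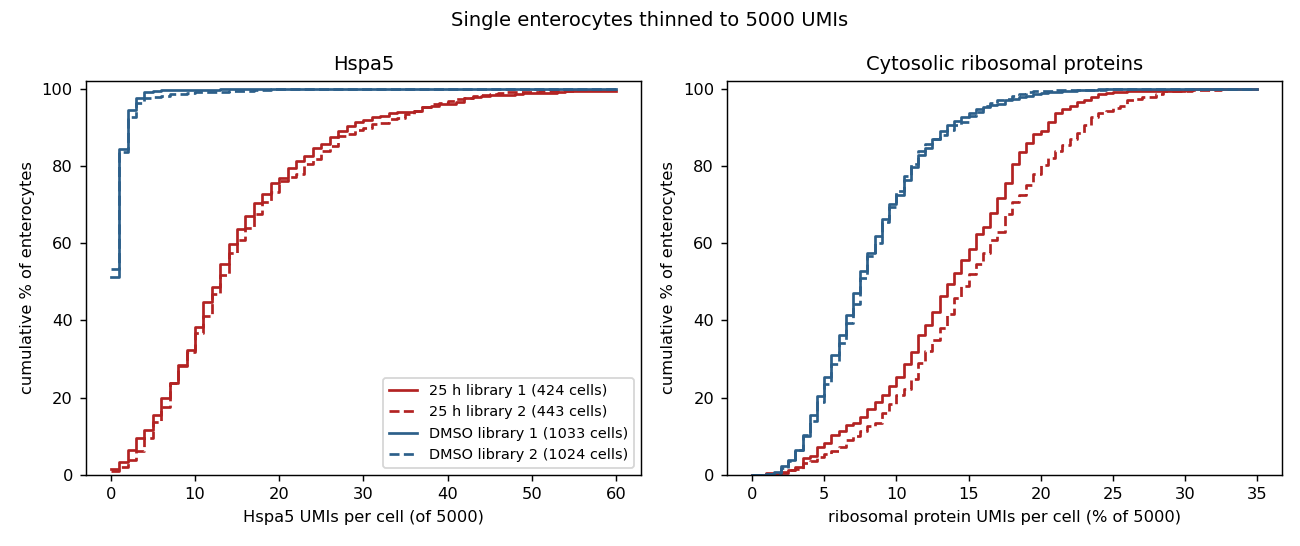
Cumulative percentage of enterocytes (vertical axes) by Hspa5 UMIs per cell (left) and by the percentage of UMIs from cytosolic ribosomal protein genes (right), with a line for each library of cells thinned to 5000 UMIs. The Hspa5 lines of 25 h and DMSO are almost separate, with medians of 13 and 0 UMIs, while the ribosomal lines overlap over much of their range.

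Absorptive genes were seen in fewer cells at 25 h. Goblet cells were thinned to the same depth, and before that their median cell held 13019 and 13437.5 UMIs at 25 h, against 11664 and 11573 in DMSO. An Apoa4 UMI was seen in 9.91% and 9.71% of enterocytes at 25 h, against 29.6% and 31.0% in DMSO, and in 1.04% and 0% of goblet cells at 25 h, against 3.09% and 8.82% in DMSO. The 0% stands for 0 of 82 goblet cells, which allows a share of up to 3.66% of cells with an Apoa4 UMI at this depth and sets no limit on how many express the gene. An Alpi UMI was seen in 26.9% and 27.1% of enterocytes at 25 h, against 61.6% and 59.1% in DMSO, and in 2.08% and 3.66% of goblet cells at 25 h, against 9.28% and 8.82% in DMSO. S100g was seen in 15.1% and 13.1% of enterocytes at 25 h, against 43.7% and 49.4% in DMSO, and Saa1 in 34.9% and 34.5% at 25 h, against 83.7% and 82.7% in DMSO. Even in DMSO, UMIs of Apoa4, S100g and Fabp2 were thus missing from more enterocytes than held them at this depth. A Fabp2 UMI was seen in 21.9% and 20.1% of enterocytes at 25 h, against 46.5% and 49.9% in DMSO, and in goblet cells in 28.1% and 28.0% at 25 h, against 44.3% and 48.0% in DMSO, so that this gene's share did not set enterocytes apart from goblet cells.

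The 13 h libraries place these levels in time. Between 25 h and 13 h, 2380 of 11145 genes (21.4%) differed in enterocytes, 1163 (10.4%) higher and 1217 (10.9%) lower at 25 h. At least 2-fold differences were fewer, with 86 genes (0.772%) higher and 84 (0.754%) lower. ER chaperones were past their 13 h level: 19 of 25 were lower at 25 h than at 13 h and 0 higher, and ER-associated degradation had 12 of 20 lower and 0 higher. Hspa5 had 159 and 214 CPM in DMSO, 4992 and 5120.1 CPM at 13 h, and 2916 and 3155 CPM at 25 h, and the 25 h level was below that of 13 h (25 h minus 13 h, log2 difference -0.74 ± 0.09 SE, edgeR adjusted p = 5.35e-05). Derl3 had 0.470 and 0.550 CPM in DMSO, 58.7 and 63.9 CPM at 13 h, and 22.2 and 23.6 CPM at 25 h (25 h minus 13 h, log2 difference -1.42 ± 0.08 SE, edgeR adjusted p = 4.18e-08). Ddit3 had 64.6 and 88.2 CPM in DMSO, 1349 and 1284 CPM at 13 h, and 758 and 786 CPM at 25 h (25 h minus 13 h, log2 difference -0.77 ± 0.09 SE, edgeR adjusted p = 2.74e-05). Areg had 24.5 and 31.8 CPM in DMSO, 266 and 283 CPM at 13 h, and 178 and 167 CPM at 25 h (25 h minus 13 h, log2 difference -0.67 ± 0.07 SE, edgeR adjusted p = 1.82e-05). These genes were highest at 13 h and lower at 25 h, while still far above DMSO.

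Other genes were higher at 25 h than at 13 h. Of 80 ribosomal protein genes 66 were higher at 25 h than at 13 h and 1 lower. Rpl10 had 1747 and 1864 CPM in DMSO, 2887 and 2925 CPM at 13 h, and 4392 and 4427 CPM at 25 h (25 h minus 13 h, log2 difference 0.60 ± 0.04 SE, edgeR adjusted p = 3.92e-07). Atf5 had 12.4 and 12.4 CPM in DMSO, 134 and 146 CPM at 13 h, and 189.6 and 186 CPM at 25 h (25 h minus 13 h, log2 difference 0.42 ± 0.05 SE, edgeR adjusted p = 5.23e-05). Hsd17b13 had 12.3 and 15.2 CPM in DMSO, 59.9 and 64.4 CPM at 13 h, and 183 and 204 CPM at 25 h (25 h minus 13 h, log2 difference 1.64 ± 0.07 SE, edgeR adjusted p = 5.51e-09), so both went up over either interval. Hspa8 had 1077 and 1070.4 CPM in DMSO, 864 and 876 CPM at 13 h, and 1520.5 and 1571 CPM at 25 h (25 h minus 13 h, log2 difference 0.83 ± 0.04 SE, edgeR adjusted p = 2.53e-08), lower at 13 h than in DMSO by the same fit (13 h minus DMSO, -0.30 ± 0.04 SE, edgeR adjusted p = 4.12e-05). Eif4ebp1 (25 h minus 13 h, 0.08, edgeR adjusted p = 0.242) and Nupr1 (25 h minus 13 h, -0.10, edgeR adjusted p = 0.512) showed no difference between 25 h and 13 h that passed.

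The falls differed in timing too. Mt2 had 208 and 263 CPM in DMSO, 159.7 and 161 CPM at 13 h, and 9.19 and 17.0 CPM at 25 h (25 h minus 13 h, log2 difference -3.60 ± 0.16 SE, edgeR adjusted p = 6.63e-09). Slc34a2 had 90.2 and 88.8 CPM in DMSO, 83.1 and 89.96 CPM at 13 h, and 12.8 and 18.2 CPM at 25 h (25 h minus 13 h, log2 difference -2.47 ± 0.10 SE, edgeR adjusted p = 3.98e-09), so that most of either fall lay between the 13 h and 25 h levels. S100g had 1459 and 1551 CPM in DMSO, 1247 and 1060.2 CPM at 13 h, and 267 and 259 CPM at 25 h (25 h minus 13 h, log2 difference -2.13 ± 0.07 SE, edgeR adjusted p = 4.48e-10). Saa1 had 2385 and 2174 CPM in DMSO, 1125 and 968 CPM at 13 h, and 267 and 248 CPM at 25 h (25 h minus 13 h, log2 difference -2.02 ± 0.07 SE, edgeR adjusted p = 7.96e-10). Ifit1, by contrast, had 173 and 170.4 CPM in DMSO, 47.8 and 41.7 CPM at 13 h, and 43.1 and 42.4 CPM at 25 h, with 25 h and 13 h levels that did not differ beyond the spread (25 h minus 13 h, log2 difference -0.07 ± 0.07 SE, edgeR adjusted p = 0.584). Adh6a had 517 and 570.4 CPM in DMSO, 166 and 151 CPM at 13 h, and 174 and 178 CPM at 25 h and showed no further fall that passed (25 h minus 13 h, log2 difference 0.15 ± 0.06 SE, edgeR adjusted p = 0.0955). Cholesterol synthesis genes were lower at 25 h than at 13 h in 17 of 23 cases and higher in 0. All groups had the same culture age at harvest, since the 13 h cells stood in DMSO before tunicamycin.

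**Figure D4:**
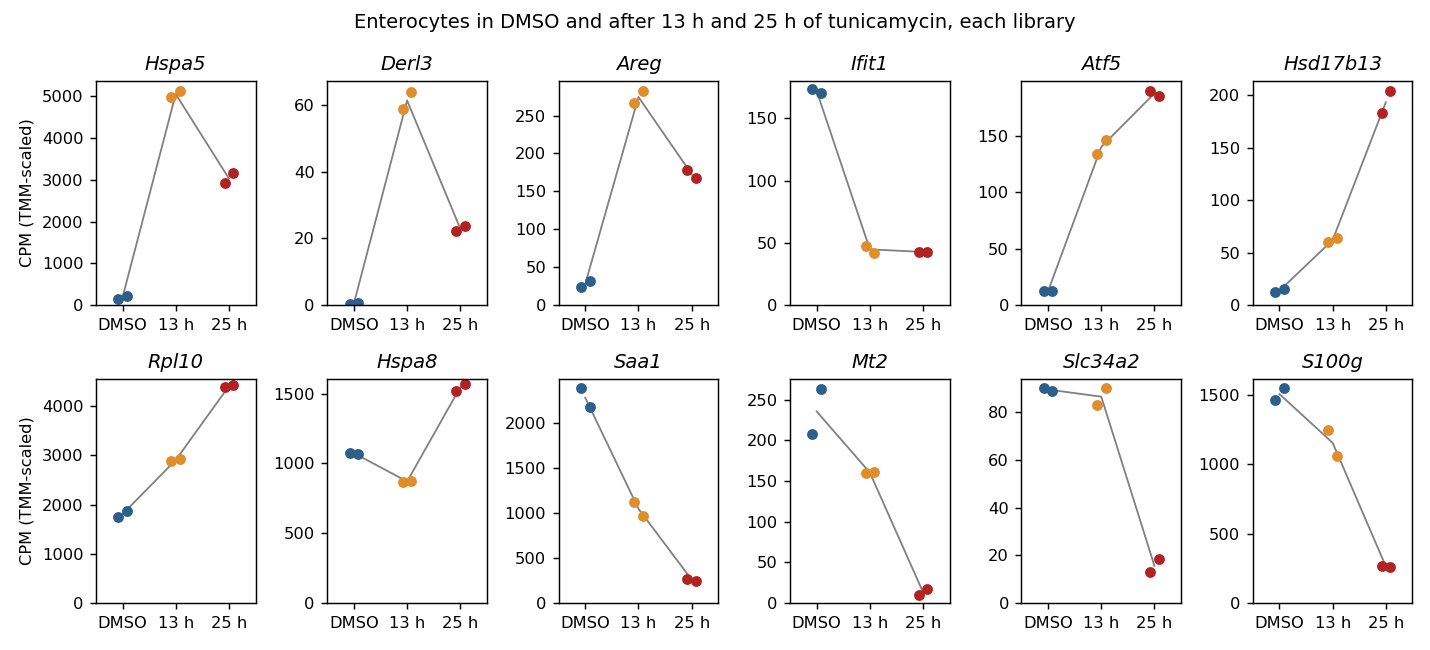
Levels of 12 genes in enterocytes in CPM (vertical axes, from 0) in DMSO and after 13 h and 25 h of tunicamycin, with a point for each library and a grey line through the means of 2 libraries. Hspa5, Derl3 and Areg are highest at 13 h, Atf5, Hsd17b13 and Rpl10 at 25 h, and Mt2 and Slc34a2 lie near 0 at 25 h.

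Goblet cells, which secrete mucus, came from the same libraries and offered a comparison for the enterocyte response. They were far fewer, with 98 and 86 kept cells at 25 h, against 105 and 109 in DMSO. Their summed UMIs were 1425291 and 1290741 at 25 h, against 1296273 and 1363224 in DMSO, so that low goblet levels rest on few UMIs. In a fit over both classes with each library as a block, the response to 25 h differed between classes in 738 of 10458 genes (7.06%), 471 (4.50%) with a higher log2 fold change in enterocytes and 267 (2.55%) with a lower one. Differences of at least 2-fold made up 150 (1.43%) and 77 (0.736%) of the genes tested. Scaled by total counts in place of TMM, the share of higher among the genes that differed went to 41.0% from 63.8% and the median difference over all genes to -0.07 from 0.05. With DESeq2 the share was 49.5%, and without 25 h replicate 1 the median difference was -0.03. The balance of directions thus depends on the scaling, the method and the libraries used. Hspa5 rose more in enterocytes by 1.62 on the log2 scale (SE 0.10, edgeR adjusted p = 9.52e-15). Its levels were 2824 and 3045 CPM at 25 h, against 156 and 209.8 CPM in DMSO, in enterocytes, and 3029.99 and 2924 CPM at 25 h, against 573 and 559 CPM in DMSO, in goblet cells. The 25 h levels of the classes were close, and the DMSO level was lower in enterocytes.

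The stress genes Pdia6, Xbp1 and Sil1 also had lower DMSO levels in enterocytes than in goblet cells. Ddit3 did not, with 63.6 and 86.2 CPM in DMSO enterocytes, against 41.3 and 59.6 CPM in DMSO goblet cells. Pdia6 (difference 2.55, SE 0.12, edgeR adjusted p = 5.85e-18) had 465 and 478 CPM at 25 h, against 24.6 and 28.3 CPM in DMSO, in enterocytes, and 720.2 and 738 CPM at 25 h, against 236 and 244 CPM in DMSO, in goblet cells. Xbp1 (difference 1.19, SE 0.13, edgeR adjusted p = 1.75e-08) had 241 and 251 CPM at 25 h, against 67.0 and 70.9 CPM in DMSO, in enterocytes, and 283 and 271 CPM at 25 h, against 204 and 152 CPM in DMSO, in goblet cells. Sil1, for the exchange factor of BiP (difference 1.87, SE 0.20, edgeR adjusted p = 1.07e-08), had 46.3 and 46.9 CPM at 25 h, against 11.2 and 11.7 CPM in DMSO, in enterocytes, and 60.4 and 59.8 CPM at 25 h, against 53.5 and 54.7 CPM in DMSO, in goblet cells, so that goblet levels hardly differed between 25 h and DMSO. The response of Ddit3 did not differ between classes beyond the error (-0.14, SE 0.16, edgeR adjusted p = 0.723), nor did that of Fabp2 (0.04, SE 0.15, edgeR adjusted p = 0.937). The fall of Apoa4 was smaller in enterocytes by 1.5 and that of Alpi by 0.87, but neither difference passed (edgeR adjusted p = 0.0598 and 0.0794), and their goblet levels were low. The Apoa4 difference did pass without DMSO replicate 1 (1.75, edgeR adjusted p = 0.0448) and with no filter on low counts (edgeR adjusted p = 0.0463). For Mt1 the fall was larger in enterocytes (-1.86, SE 0.16, edgeR adjusted p = 6.68e-11), with 202 and 264 CPM at 25 h, against 1763 and 1792 CPM in DMSO, in enterocytes, and 60.4 and 113 CPM at 25 h, against 159 and 201 CPM in DMSO, in goblet cells. For Ifit1 it was smaller in enterocytes (2.04, SE 0.24, edgeR adjusted p = 4.88e-08), with 41.7 and 41.0 CPM at 25 h, against 171 and 167 CPM in DMSO, in enterocytes, and 10.9 and 10.1 CPM at 25 h, against 176 and 175 CPM in DMSO, in goblet cells.

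**Figure D5:**
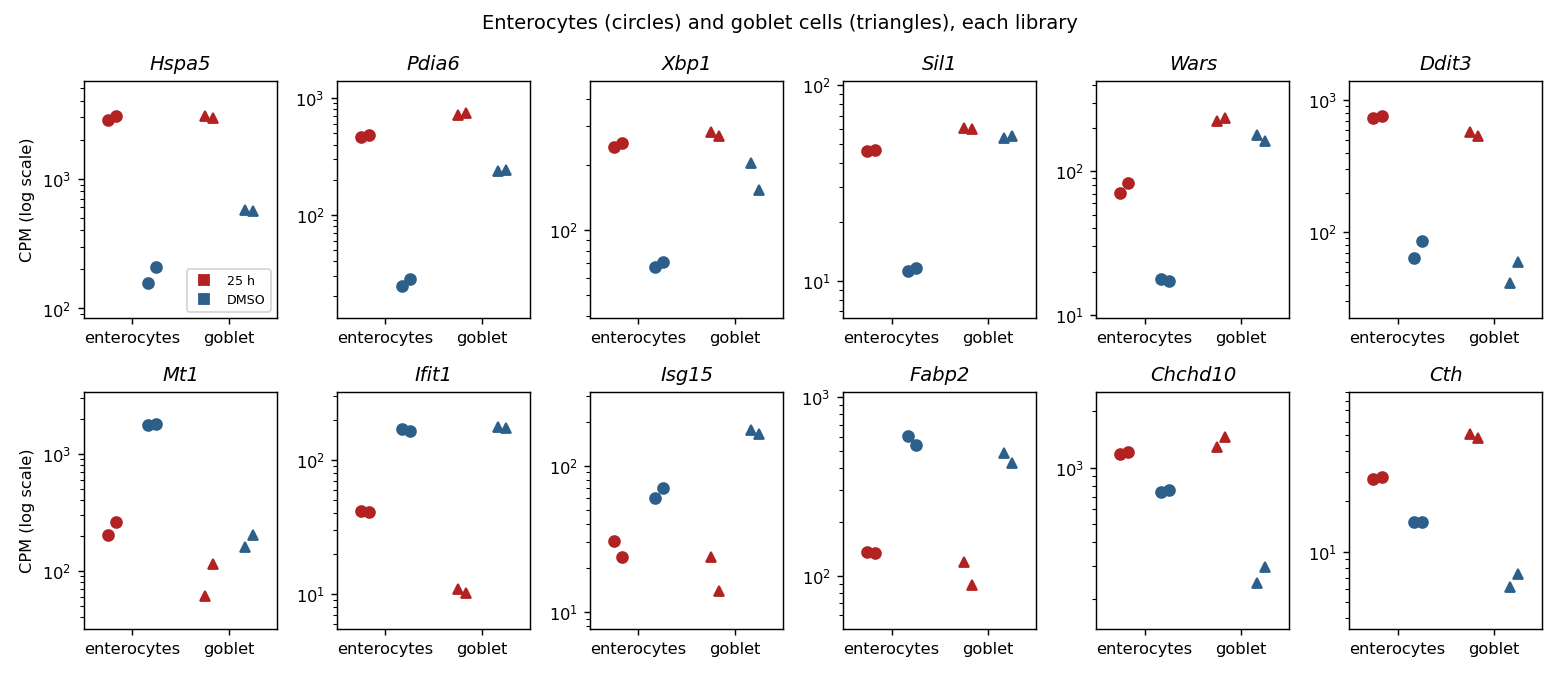
Levels of 12 genes in CPM (log axes) in enterocytes (circles) and goblet cells (triangles), with a point for each library, 25 h in red and DMSO in blue. For Hspa5, Pdia6 and Xbp1 the classes lie closer at 25 h than in DMSO, where enterocytes are lower, while Fabp2 is lower at 25 h in both.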

How the data were processed

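Per the labels' protocols, single cells were captured with 10x Genomics 3' V2 reagents, and per the submitters' processing notes the authors used Cell Ranger and the mm10 build. The deposited matrix holds raw UMI counts of 27998 genes; no source used here states the version, the cell filter or how cells were classed. UMIs of enterocytes with at most 25% mitochondrial UMIs were summed per library. All 6 libraries entered a single fit in edgeR 4.0.16 (R 4.3.3) with filterByExpr and TMM, and quasi-likelihood p-values were adjusted by Benjamini-Hochberg over all tested genes, with a threshold of 0.05. SE was derived from the F statistic. DESeq2 1.42.0 was an alternative. Fits were tested on simulated data. Cells were thinned to 5000 UMIs for values per cell (Python 3.11.15, scanpy 1.11.5 with Scrublet; doublets were kept). Named were the 10 highest and 10 lowest fold changes (mean at least 20 CPM, groups apart), up to 3 genes per list by adjusted p, and 9 fixed genes; others named beside them were chosen after their values were seen. A few items the rule names are not reported here. Members and lists were chosen with earlier results of these data known.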

Additional observations from a re-analysis of the deposited data

Results flagged for a closer look

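In 19 named genes the 25 h response differed between enterocytes and goblet cells by edgeR's test of that difference, given here as the log2 fold change in enterocytes minus that in goblet cells. Of the stress genes the difference was 2.55 for Pdia6, 1.62 for Hspa5, 1.87 for Sil1, 1.19 for Xbp1, 1.69 for Wars and 0.62 for Atf4. The Atf4 difference did not pass without 25 h replicate 1 (0.41, edgeR adjusted p = 0.103). Wars had 70.4 and 82.7 CPM at 25 h, against 17.9 and 17.3 CPM in DMSO, in enterocytes, and 225 and 234 CPM at 25 h, against 179.9 and 162 CPM in DMSO, in goblet cells. The interferon-stimulated genes Ifit1, Isg15 and Ifit1bl1 had differences of 2.04, 1.91 and 1.85, with the lower 25 h levels in goblet cells. For Isg15 and Ifit1bl1 the DMSO levels also differed and were higher in goblet cells. Isg15 had 60.0 and 70.0 CPM in DMSO enterocytes, against 176 and 166 CPM in DMSO goblet cells. Ifit1bl1 had 138 and 139 CPM in DMSO enterocytes, against 238 and 183 CPM in DMSO goblet cells. Sct, which encodes the hormone secretin, had a difference of 1.81, and Clca4a one of 1.79.

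Negative differences, where the fold change was the lower one in enterocytes, were -1.68 for Chchd10, -1.70 for Acox2, -1.72 for Nme1, -1.86 for Mt1, -2.0 for Cth, -2.35 for Acta1, -2.38 for Tat and -2.75 for Snhg12. Chchd10, which encodes a mitochondrial protein, had 1176 and 1204 CPM at 25 h, against 739 and 761 CPM in DMSO, in enterocytes, and 1293 and 1445 CPM at 25 h, against 243 and 295 CPM in DMSO, in goblet cells. Cth, for the enzyme that makes cysteine from cystathionine, had 27.1 and 27.8 CPM at 25 h, against 15.0 and 15.0 CPM in DMSO, in enterocytes, and 50.9 and 48.1 CPM at 25 h, against 6.14 and 7.35 CPM in DMSO, in goblet cells. Snhg12 had 47.4 and 49.2 CPM at 25 h, against 9.19 and 8.97 CPM in DMSO, in enterocytes. In goblet cells it had 46.1 and 45.8 CPM at 25 h, against 1.76 and 0.817 CPM in DMSO. The goblet DMSO levels of Cth and Snhg12 stand for few UMIs. The Snhg12 difference was not past the threshold without DMSO replicate 2 (edgeR adjusted p = 0.102). The Acta1 difference did not pass with DESeq2 (adjusted p = 0.128), and the goblet libraries of Acta1 had 151 and 238 CPM at 25 h, against 48.3 and 131 CPM in DMSO.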

How the results depend on the processing

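Against DMSO, genes higher numbered 1922 with DESeq2 and 1656 with cells thinned to 5000 UMIs (2905 reported), and genes lower 1797 with thinned cells (2696). Against 13 h, DESeq2 gave 538 higher, 737 lower and 30 at least 2-fold higher (1163, 1217 and 86), and leaving out a library gave 766 to 996 higher. The class difference had 282 higher, 405 lower and 130 at least 2-fold lower with total-count scaling, and 155 higher, 158 lower, 59 at least 2-fold higher and 39 at least 2-fold lower with DESeq2 (471, 267, 150 and 77). Leaving out a library gave 203 to 456, 156 to 250, 93 to 143 and 47 to 95 for these counts. Thinned to 3000 UMIs, chaperones took 1.33% at 25 h and 0.267% in DMSO, Ddit3 UMIs were in 82.7% and 16.5% of cells, and Apoa4 UMIs in 6.42% and 23.1%. At most 10% mitochondrial UMIs gave 15.7% ribosomal at 25 h and 8.52% in DMSO, 1.32% chaperone and 90.9% Ddit3 at 25 h, and Apoa4 in 10.5% at 25 h and 36.5% in DMSO. Qrich1 between 25 h and 13 h changed sign to 0.039 without 25 h replicate 2 and 0.03 without 13 h replicate 2 (-0.04 reported, -0.13 without 25 h replicate 1). The Fabp2 class difference changed sign to -0.086 with total-count scaling, -0.15 without 25 h replicate 2 and -0.01 without DMSO replicate 2 (0.04 reported, 0.17 without 25 h replicate 1); none of these values passed the test. The cause was not tested. With the replicate number as a block 5444 genes differed from DMSO, 5404 of them among the 5601 reported, and none of the 132 genes chosen by the naming rule changed its call against DMSO. Under the block the acute-phase list had 1 riser (2 reported) and fatty acid synthesis 0 (1), and Atf4 no longer differed between 25 h and 13 h (edgeR adjusted p = 0.0524). Same-numbered libraries did not deviate together (correlations -0.02, -0.01 and -0.03). None of the 132 genes changed direction against DMSO in any alternative. With thinned cells the risers numbered 30 of the mitochondrial ribosomal protein genes (49 reported), 4 of the sensor list (7) and 5 of the EGF and NF-kB list (8). They numbered 2 of the apoptosis list (4), 1 of the immediate early list (4) and 1 of the goblet markers (3), and 0 proteasome genes fell (10). With no filter on low counts 8 mitochondrial ribosomal protein genes fell (4). With at most 10% mitochondrial UMIs 4 p53 targets fell (2). Depth limits genes under 10 UMIs a library, such as Derl3 and Cox6a2 in DMSO and Snhg12 in the goblet cells of DMSO.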
